A study of Mus musculus with 9 samples.

Results

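The expanded CD8+ T cell clones of a mouse melanoma that were not found in the lymph node draining it are described here. A clone was a set of tumour cells whose T cell receptor beta chain had identical CDR3 bases between identical V and J genes, and a large clone had at least 10 cells. A large clone was called absent when the beta chain table of the node of the same mouse did not list it, and present when it did. There were 72 absent clones among 229 large clones, with 2105 of the 30026 tumour cells that had a beta chain (7.01%), and the other 157 large clones were present.

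The mice were 8-week-old female C57BL/6 mice with B16F10 tumours, a transplantable melanoma line of which 500000 cells were placed under the skin, and tissues were taken on day 14. One mouse had received an antibody against CD4, which depletes CD4+ cells, and another an antibody against PD-L1, each at 200 µg on days 5 and 9. The third mouse was untreated. CD8+ cells outside the bloodstream were sorted by markers from all 3 tumours, and receptor-transgenic Pmel-1 spleen T cells were added after the sort; the Pmel-1 clone was left out. The anti-CD4 tumour filled 1 capture cartridge, so that this treatment and its cartridge cannot be told apart. The other 2 tumours shared a cartridge under sample tags 1 and 2, and no label used here says which tag was treated. The titles and the treatment labels of their 2 nodes contradict each other. Tag 1 was paired with the node titled Control and tag 2 with the node titled aPDL1 by the clones they had in common, which means that the pairing of these 2 mice rests on the sharing itself. Each treatment had 1 mouse, so absent and present clones were compared within mice and never treatments with each other.

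A T cell clone descends from a cell whose receptor genes were joined once, and the bases at the V to J junction of its CDR3 mark the clone wherever its cells travel. Antigen is usually first met in the draining node, where naive and stem-like cells that carry TCF-1, the product of Tcf7, and the homing receptor CCR7 can persist. In the tumour, clones that keep meeting antigen acquire inhibitory receptors such as PD-1 (Pdcd1) and TIM-3 (Havcr2) and the granule protease granzyme B (Gzmb).

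The CDR3 sequences of the absent clones that the results turn on are shown 5′ to 3′ from the conserved cysteine codon on, as deposited. Capitals mark the bases that matched neither the commonest start of the V gene nor the commonest end of the J gene among the node clones, and thus stand at the junction. The first 3 belong to the largest absent clone of each tumour.
anti-CD4 tumour, TRBV31 and TRBJ2-7, 203 cells, absent: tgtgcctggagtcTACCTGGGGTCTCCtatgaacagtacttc
tag 1 tumour, TRBV1 and TRBJ1-2, 57 cells, absent: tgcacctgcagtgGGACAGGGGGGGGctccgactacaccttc
tag 2 tumour, TRBV5 and TRBJ1-4, 275 cells, absent: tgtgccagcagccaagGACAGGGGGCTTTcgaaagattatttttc

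The next 5 are TRBV19 clones of the same V and J genes whose sequences code for the same CDR3 protein within each set but differ in bases, so that they are separate clones. They are shown because a clone can be absent while a clone with the same CDR3 protein is present.
anti-CD4 tumour, TRBV19 and TRBJ2-1, 58 cells, absent: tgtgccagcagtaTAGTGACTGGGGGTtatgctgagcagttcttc
anti-CD4 tumour, TRBV19 and TRBJ2-1, 27 cells, present: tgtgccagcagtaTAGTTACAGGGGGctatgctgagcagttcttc
anti-CD4 tumour, TRBV19 and TRBJ2-4, 35 cells, absent: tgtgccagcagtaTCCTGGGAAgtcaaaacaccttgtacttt
anti-CD4 tumour, TRBV19 and TRBJ2-4, 111 cells, present: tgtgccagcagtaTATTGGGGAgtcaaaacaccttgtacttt
tag 2 tumour, TRBV19 and TRBJ2-4, 104 cells, present: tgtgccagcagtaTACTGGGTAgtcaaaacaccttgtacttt

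The last is 1 sequence that was a large absent clone in 2 mice captured on different cartridges, with 14 cells in the anti-CD4 and 40 cells in the tag 1 tumour.
anti-CD4 and tag 1 tumours, TRBV19 and TRBJ2-4, absent in both: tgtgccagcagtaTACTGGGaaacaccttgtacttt

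Of the absent clones, 8 need to be set apart before the results. Under tag 1, 6 of the 33 absent clones had more cells in the tag 2 tumour of the same cartridge, and under tag 2, 2 of the 14 had more cells in the tag 1 tumour. The TRBV12-1 clone with 54 cells under tag 2 had 1485 under tag 1, where it was the largest present clone, and the TRBV4 clone with 26 cells under tag 2 had 919 under tag 1. The 6 under tag 1 had 10 to 18 cells there and 86 to 450 under tag 2. One of them is the TRBV5 sequence shown above, with 17 cells under tag 1 and 275 under tag 2, which was absent in both and so counts as an absent clone of each. In the cells of these 8 clones a second beta chain was read more often. Between 52.9% and 82.4% of the cells had a beta fraction under 1, the deposited share of a cell's beta chain reads that its leading chain held. In the other 39 absent clones of these 2 tumours the range was 0 to 36.4%. The commonest alpha chain was likewise carried by 21.1% to 60% of a clone's cells with an alpha chain in the 8 and by 50% to 100% in the 39. None of the 34 present clones of tag 1 or the 41 of tag 2 had more cells in the other tumour. The anti-CD4 tumour had no other tumour on its cartridge. The results are therefore given with these 8 clones and, where they move, without them. The 2 cartridges shared 397 cell barcode numbers among 37208 cells.

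Between 23.4% and 49.3% of the large clones of a tumour were absent from its node. In the anti-CD4 tumour 25 of 107 large clones were absent, 23.4% (exact Clopper-Pearson 95% interval 15.7 to 32.5). In the tag 1 tumour 33 of 67 were absent, 49.3% (36.8 to 61.8), and without the clones larger in the other tumour 27 of 61, 44.3% (31.5 to 57.6). Under tag 2 the count was 14 of 55, 25.5% (14.7 to 39.0), and without those clones 12 of 53, 22.6% (12.3 to 36.2). Each tumour is 1 mouse, and all intervals here cover counting error only.

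What a node table could list sets what absence means. The node tables held 1259463 reads in 29791 clones (anti-CD4), 326019 in 11868 (titled Control) and 350459 in 13373 (titled aPDL1), and no clone was listed with fewer than 10 reads. A clone had to reach 0.000794%, 0.00307% and 0.00285% of the node reads, so absent clones lay below these levels or were not in the sequenced part of the node. Present large clones had a median of 185, 107 and 73 node reads, and 10 of 82, 2 of 34 and 4 of 41 of them lay just above the limit, at 10 to 19 reads. When the anti-CD4 node was thinned to the depth of the smallest node, 36.4% of its large clones were absent (27.4 to 46.3), above the 23.4% at full depth, so the shares of the 3 tumours are not on 1 scale.

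The nodes of other mice listed few large clones of either class. Of present clones they listed 2 of 82 (anti-CD4), 1 of 34 (tag 1) and 2 of 41 (tag 2). None of the 25 absent clones of the anti-CD4 tumour was in either other node. Of the 33 of tag 1, 6 were in the node titled aPDL1, of which 5 belonged to the clones larger under tag 2. Of the 14 of tag 2, 2 were in the node titled Control, and both belonged to the clones larger under tag 1. Of these 2, 1 was also in the anti-CD4 node. Without the clones larger in the other tumour the absent counts were 1 of 27 under tag 1 and 0 of 12 under tag 2. All 25 absent clones of the anti-CD4 tumour had cells under both of its sample tags, at least 2 under each.

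The median absent clone was smaller than the median present clone in all 3 tumours. In the anti-CD4 tumour the median absent clone had 19 cells (range 10 to 203) and the median present clone 30 (10 to 2132). The medians were 15 (10 to 57) and 20 (10 to 1485) cells under tag 1, and 27 (11 to 275) and 39 (10 to 450) under tag 2. The log2 difference of the medians, absent minus present, was -0.66, -0.42 and -0.53 in the 3 mice, with a mean of -0.53 ± 0.12 (SD, n = 3). An exact two-sided sign-flip permutation test over the mice gave p = 0.25, the smallest this test can give with 3 mice, so it cannot reach 0.05 whatever the difference. The ranges overlapped in every tumour. Clones of 100 or more cells were 1 of 25, 0 of 33 and 1 of 14 absent clones, against 18 of 82, 4 of 34 and 8 of 41 present ones. Large absent clones held 6.78%, 9.95% and 5.60% of the cells of the 3 tumours, and large present clones 76.4%, 51.5% and 24.5%. Without the clones larger in the other tumour, absent clones held 8.61% of the cells under tag 1 and 4.89% under tag 2. Their medians were then 15 and 26 cells.

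**Figure D1:**
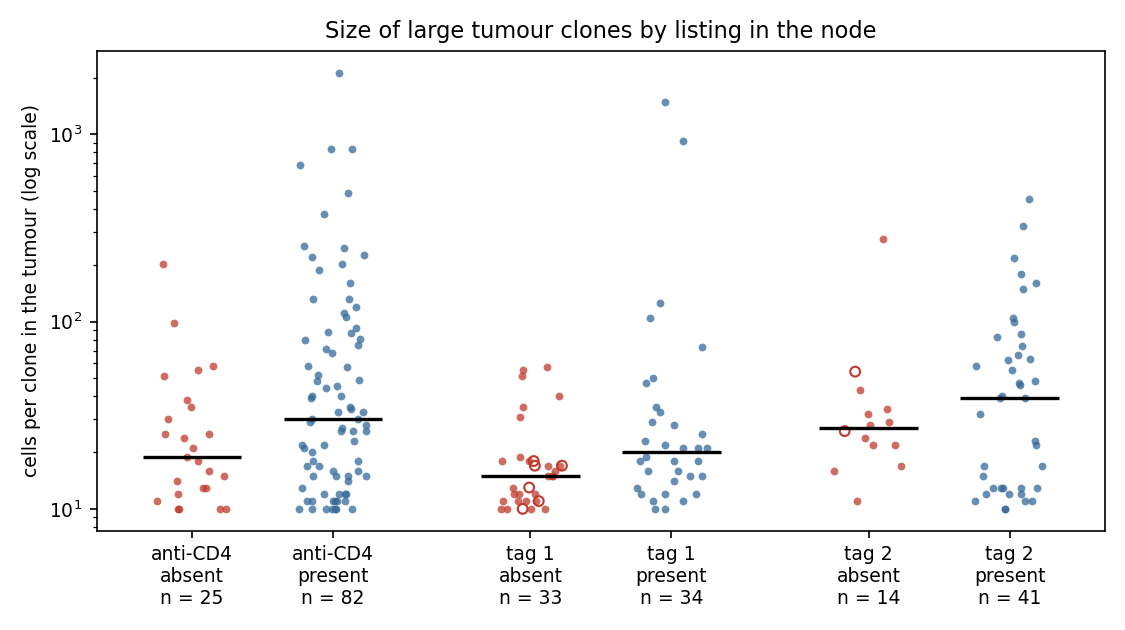
Cells per clone on a log axis for each large clone, by tumour and by listing in the matched node; bars are medians and open circles the 8 clones with more cells in the other tumour of the cartridge. Absent clones reach 203, 57 and 275 cells, while present clones reach 2132, 1485 and 450.

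The share absent did not fall evenly with clone size. Clones of 1 cell were absent in 73.2% (anti-CD4), 93.1% (tag 1) and 96.9% (tag 2) of cases. In the anti-CD4 tumour the share was 25.2% at 2 to 4 cells and 27.9% at 5 to 9, and for large clones it was 31.0% at 10 to 19 (13 of 42), 22.6% at 20 to 49 (7 of 31) and 14.7% from 50 cells up (5 of 34). Under tag 1 it was 61.4% (27 of 44), 21.4% (3 of 14) and 33.3% (3 of 9) in the same 3 steps. Under tag 2 it was 15.8% (3 of 19), 50% (9 of 18) and 11.1% (2 of 18), so that its absent clones gathered between 20 and 49 cells. The exact 95% intervals of these last 3 shares were 3.38 to 39.6, 26 to 74.0 and 1.38 to 34.7, and they overlapped. All these shares count the clones larger in the other tumour as absent. Under tag 1 those 6 clones all fell in the step of 10 to 19 cells. Under tag 2 they had 26 and 54 cells and so fell in the steps above it. At the size limit itself, 3 of 9, 4 of 9 and 2 of 4 clones of 9 cells were absent, and 4 of 11, 5 of 7 and 0 of 2 clones of 10 cells.

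**Figure D2:**
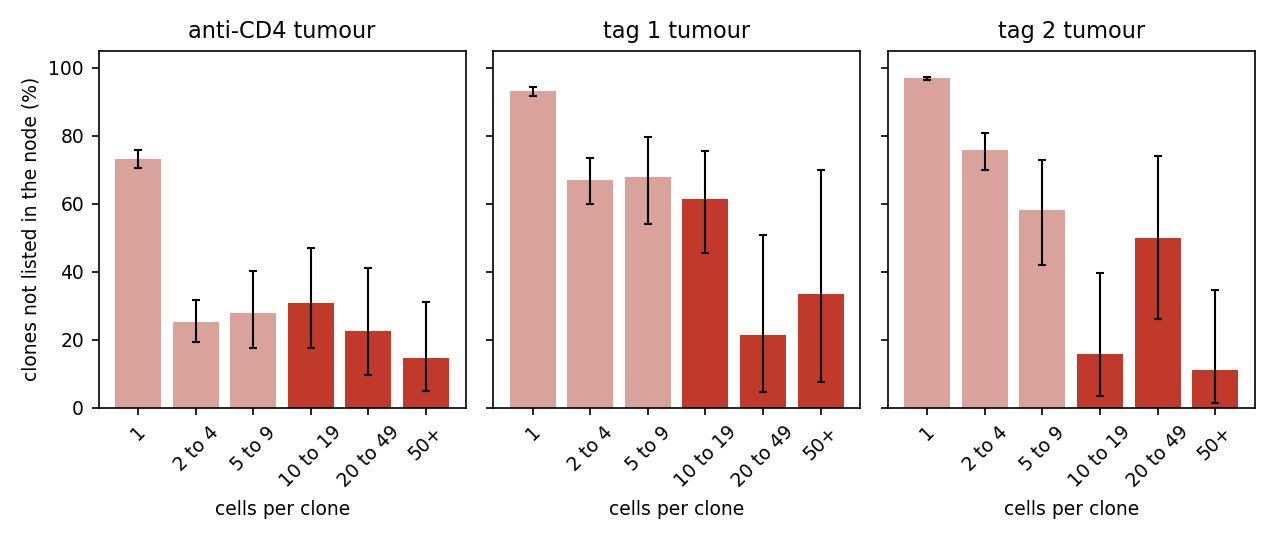
Percent of clones not listed in the matched node by clone size in each tumour; error bars are exact 95% binomial intervals, and dark bars are the large clones. The share at 1 cell is 73.2%, 93.1% and 96.9%, and from 50 cells up it is 14.7%, 33.3% and 11.1%.

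Among the beta V genes, TRBV19 stood out in the absent clones of the anti-CD4 tumour. The gene lies at chr6:41178589-41179048 (GRCm38, RefSeq). It was used by 11 of 25 absent clones, 44.0% (exact 95% interval 24.4 to 65.1), and by 15 of 82 present clones, 18.3% (10.6 to 28.4). Under tag 1 it was used by 4 of 33 absent clones, 12.1% (3.4 to 28.2), and by 0 of 34 present clones (0 to 10.3). The clone of 10 cells with TRBJ1-1 among these 4 was larger under tag 2. Under tag 2 the order was the opposite, with 1 of 14 absent, 7.14% (0.181 to 33.9), and 7 of 41 present, 17.1% (7.15 to 32.1). The 2 intervals overlapped in every tumour. Of clones of 1 cell 7.47%, 6.31% and 7.01% used TRBV19, and of node clones 3.64%, 3.64% and 3.44%. The share among absent clones of the anti-CD4 tumour was above both. So were the 18.3% of its present clones and the 17.1% of present clones under tag 2. The 15 present TRBV19 clones of that tumour had 11 to 431 node reads, from just above the listing limit upward.

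TRBV12-1 was spread the other way in the anti-CD4 and tag 2 tumours. It was used by 0 of 25 absent (0 to 13.7%) and 13 of 82 present clones (15.9%) in the anti-CD4 tumour, by 2 of 33 and 2 of 34 under tag 1, and by 4 of 14 (28.6%) and 2 of 41 (4.88%) under tag 2. One of the 4 was the clone with 1485 cells under tag 1, and without both clones larger under tag 1 the count was 3 of 12 (25%). TRBV16 was used by 2 of 25 absent and 4 of 82 present clones, 2 of 33 and 5 of 34, and 3 of 14 and 3 of 41. No V gene with at least 5 large clones had a share of absent clones at least 5 points higher, or at least 5 points lower, than of present clones in all 3 tumours. The J genes of the TRBJ2 cluster served 76.0%, 51.5% and 85.7% of absent and 75.6%, 61.8% and 68.3% of present clones.

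The CDR3 of absent clones was of the usual length. Its mean was 40.4 ± 3.25 bases (SD over 25 clones) in absent and 41.1 ± 4.68 (82 clones) in present clones of the anti-CD4 tumour. It was 41.5 ± 4.44 (33 clones) and 41.1 ± 4.46 (34 clones) under tag 1, and 43.7 ± 4.2 (14 clones) and 41.0 ± 4.72 (41 clones) under tag 2. The stretch that matched neither the V nor the J template had a median of 12, 12 and 13 bases in absent and 11, 10 and 11 bases in present clones. The ranges of the classes overlapped throughout, from 5 to 15 bases in absent and 1 to 20 in present clones of the anti-CD4 tumour.

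In the anti-CD4 tumour nearly every TRBV19 clone had the same kind of alpha chain, whether or not the node listed it. TRAJ30 (chr14:54189866-54189924, GRCm38) was the J gene of the commonest alpha chain in 11 of 11 absent and 14 of 15 present TRBV19 clones of the anti-CD4 tumour. The alpha V gene was TRAV6-7-DV9 or TRAV6D-7, which are near-identical copies, in 10 of the 11 and 13 of the 14, and every one of these 25 alpha CDR3s was 42 bases long. The 11 absent clones held 10 different alpha CDR3 nucleotide sequences that coded for 5 proteins, and the 14 present ones 10 sequences that coded for 4. Both classes of the anti-CD4 tumour thus showed this pairing. Under tag 1, 2 of the 4 absent TRBV19 clones had a leading TRAJ30 chain, 1 of them with TRAV6-7-DV9 or TRAV6D-7. The other of these 2, with 10 cells, was larger under tag 2. Under tag 2 the 1 absent and 6 of the 7 present TRBV19 clones had a leading TRAJ30 chain.
anti-CD4 tumour, alpha chain of the absent 58-cell clone, TRAV6-7-DV9 and TRAJ30: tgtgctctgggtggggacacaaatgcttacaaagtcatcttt
anti-CD4 tumour, alpha chain of the absent 51-cell TRBV19 clone, TRAV14N-1 and TRAJ30: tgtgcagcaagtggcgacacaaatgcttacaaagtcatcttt

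Over all V genes, TRAJ30 alpha chains led in 15 of 25 absent clones of the anti-CD4 tumour, 60% (38.7 to 78.9), and in 27 of 82 present clones, 32.9% (22.9 to 44.2). The counts were 5 of 33 and 0 of 34 under tag 1, and 1 of 14 (7.14%) and 13 of 41 (31.7%) under tag 2, the reverse order. Among the 5 under tag 1, the TRBV29 clone of 17 cells and the TRBV19 clone of 10 cells were larger under tag 2. In the anti-CD4 tumour, TRAJ30 clones without TRBV19 were 4 of all 25 absent (16.0%) and 13 of all 82 present clones (15.9%). TRAJ30 clones with TRBV19 were 11 of the 25 and 14 of the 82. Counted over the whole class, the difference thus lay in the TRBV19 clones. Both of these denominators include the TRBV19 clones, which were a larger part of the absent than of the present class. The near-equal 16.0% and 15.9% are therefore not shares among only the clones without TRBV19. Among only those, the TRAJ30 share was higher in the absent class, a difference that was not tested. Among clones of 1 cell with an alpha chain, 8.57%, 5.55% and 7.03% carried TRAJ30.

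**Figure D3:**
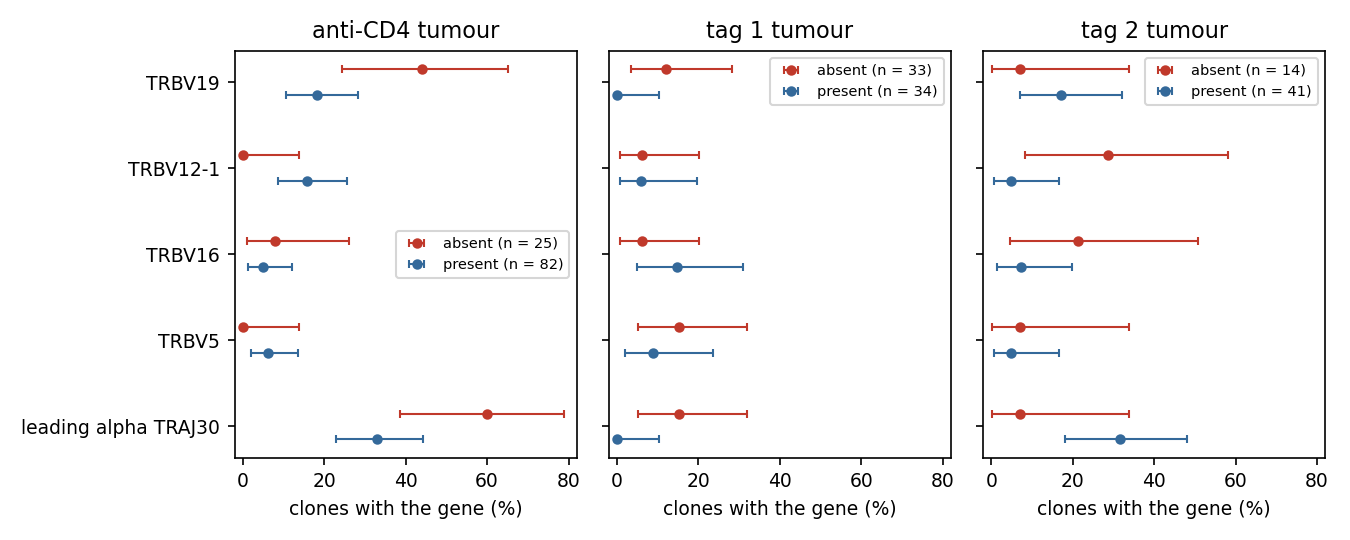
Percent of absent and present large clones that used 4 beta V genes, or whose commonest alpha chain used TRAJ30, in each tumour, with exact 95% binomial intervals. TRBV19 and TRAJ30 are higher among absent clones of the anti-CD4 tumour (44.0% and 60%) and lower among absent clones of the tag 2 tumour (7.14% for both).

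An absent clone could have a present counterpart with the same CDR3 protein. The amino acids of the beta CDR3 were listed in the matched node for 9 of the 72 absent clones: 6 of 25 (anti-CD4), 1 of 33 (tag 1) and 2 of 14 (tag 2). For none of the 72 did the node hold the same CDR3 nucleotides under another V or J gene. The TRBV19 and TRBJ2-1 clones of 58 (absent) and 27 cells (present) differed at 3 of 45 bases and had the same alpha CDR3, base for base. The TRBV19 and TRBJ2-4 clones of 35 (absent) and 111 cells (present) of the same tumour differed at 3 of 42 bases, and the 104-cell present clone of the tag 2 tumour differed from the former at 2 of 42. Their alpha CDR3s coded for the same protein with different bases. A node clone that differed by 1 base from an absent clone of the same V and J was found for 0 of 25, 1 of 33 and 1 of 14 absent clones, and for 8 of 82, 6 of 34 and 6 of 41 present clones.

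The sequence that was absent in 2 mice had the same alpha CDR3 bases in both. Its 14 cells in the anti-CD4 and 40 cells in the tag 1 tumour were read in different cartridges, and neither matched node listed it. This alpha chain was named TRAV6-7-DV9 in the former and TRAV6D-7 in the latter.

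The largest absent clones did not share 1 expression state. In the anti-CD4 tumour the TRBV31 clone (203 cells, 1.65% of the tumour) and the TRBV13-1 clone (98 cells) had a mean log2(CPM + 1) of Gzmb of 15.59 and 14.27, where CPM are a cell's reads of the gene per 1000000 panel reads, and of Tcf7 of 0.35 and 0.87. The absent TRBV19 clone of 58 cells was like them, at 14.27 for Gzmb and 0.48 for Tcf7. The TRBV13-2 clone of 55 cells and the TRBV19 clone of 51 cells lay lower for Gzmb, at 9.07 and 9.78, and higher for Tcf7, at 2.41 and 1.95. The 3 largest present clones (2132, 837 and 832 cells) had 13.40, 14.53 and 12.65 for Gzmb and 0.55, 0.30 and 0.48 for Tcf7, values between those of the absent ones for Gzmb.

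Under tag 1 the TRBV1 clone of 57 cells had 9.62 for Gzmb and 1.49 for Tcf7, and the 40-cell TRBV19 clone, the one also absent in the anti-CD4 mouse, had 4.72 and 8.58. The TRBV13-1 clone of 55, the TRBV19 clone of 51 and the TRBV13-2 clone of 35 cells had 6.47, 7.01 and 9.41 for Gzmb. The largest present clones, of 1485, 919 and 126 cells, lay at 9.24, 7.19 and 9.50 for Gzmb. Their Tcf7 values were 5.86, 7.95 and 5.59, inside the range of the absent clones.

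Under tag 2 the TRBV5 clone of 275 cells (2.43% of the tumour) had 9.13 for Gzmb and 2.88 for Tcf7, and the TRBV3 clone of 43 cells had 9.09 and 3.16. The TRBV19 clone of 34 cells and the TRBV20 clone of 32 cells had 0.77 and 2.03 for Gzmb and 10.58 and 11.48 for Tcf7. The TRBV12-1 clone, which had 1485 cells under tag 1, had 6.26 and 10.71. The 5 largest absent clones of this tumour thus ranged from 0.77 to 9.13 for Gzmb and from 2.88 to 11.48 for Tcf7, while present clones reached 14.47 for Gzmb.

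Gzmb had a higher median over absent than over present clones in all 3 tumours, with wide overlap. Its median over clones of the mean log2(CPM + 1) was 12.77 in absent (range 6.86 to 15.59) and 10.61 in present clones (4.58 to 16.53) of the anti-CD4 tumour. The medians were 8.35 (2.11 to 12.88) and 6.25 (2.06 to 11.28) under tag 1, and 5.47 (0.77 to 9.13) and 4.49 (0 to 14.47) under tag 2. Without the clones larger in the other tumour, the absent medians were 8.61 and 4.96 under tags 1 and 2. In a limma fit of class means of log2(CPM + 1) over the 3 mice the Gzmb difference was 1.03, with an adjusted p of 0.592, and in edgeR's fit of read sums it was 0.33 on the log2 scale, with an adjusted p of 0.833.

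Among genes of chronically stimulated cells, the median of Pdcd1 was higher over absent clones in all 3 tumours and that of Havcr2 in 2 of them. The median of Pdcd1 was 11.80 in absent and 11.77 in present clones (anti-CD4), 4.59 and 3.07 (tag 1), and 10.93 and 10.36 (tag 2). Without the clones larger in the other tumour the absent median of tag 1 was 3.71. For Havcr2 the medians were 5.08 and 5.36, 3.03 and 1.74, and 2.43 and 2.21. For Tcf7 they were 1.20 and 1.70, 6.31 and 7.36, and 8.18 and 7.17, so that the absent median was lower under anti-CD4 and tag 1 and higher under tag 2. Without the clones larger in the other tumour the absent Tcf7 medians were 6.10 and 7.67 under tags 1 and 2. In the read sums of tag 2 described below Tcf7 had the other order, with 1950 CPM in absent and 2138 in present clones. Havcr2 also had the other order in the sums of tag 2 (1013 and 1253 CPM) and of the anti-CD4 tumour (2225 and 2037). The Pdcd1 sums of tag 2 were nearly equal, at 8201 and 8177 CPM. Cxcr6, which encodes a chemokine receptor of tissue-resident cells, had medians of 10.55 and 10.34, 7.33 and 5.88, and 6.76 and 6.34.

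**Figure D4:**
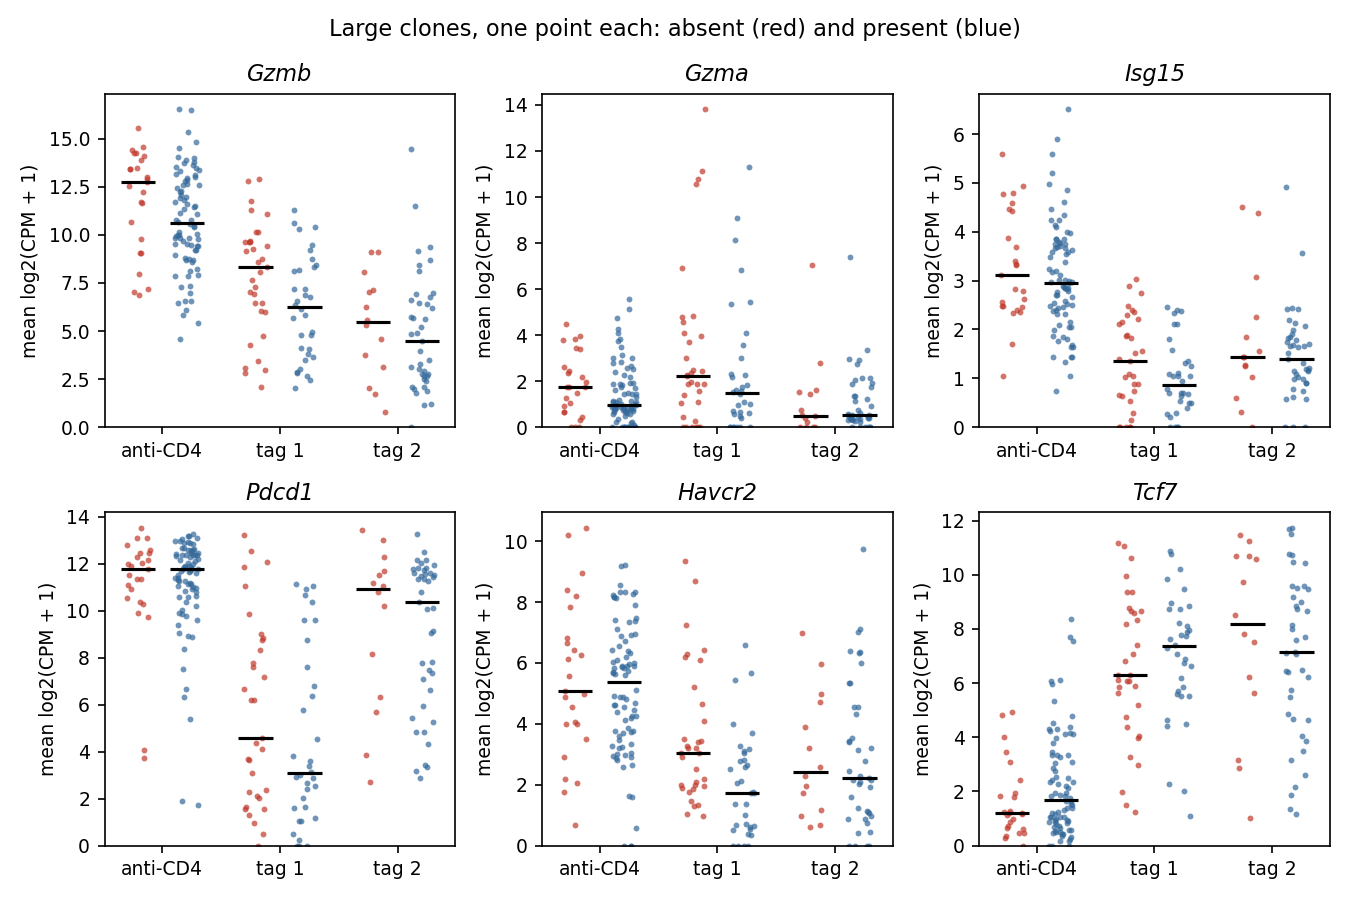
Mean log2(CPM + 1) over the cells of each large clone for 6 genes, absent clones in red and present clones in blue, with bars at the medians. Absent and present clones overlap in every panel; the Gzmb medians are 12.77 and 10.61, 8.35 and 6.25, and 5.47 and 4.49 in the 3 tumours.

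To test genes over mice, the reads of 10 randomly drawn cells of each clone were summed, so that each clone weighed the same, and the 6 sums (absent and present in 3 mice, 4487310 to 19477339 reads) were compared with the mouse as a block. Of 450 genes tested with edgeR's quasi-likelihood test and Benjamini-Hochberg adjustment, 0 passed an adjusted p of 0.05 (0%), and the lowest adjusted p was 0.63. At an unadjusted p under 0.05 there were 21 genes (4.67% of those tested), of which 7 were higher and 14 lower in absent clones. DESeq2 called 11 of the 450 (2.44%), 2 higher and 9 lower, and edgeR without the filter on low counts called 27 of 1943 (1.39%), 5 higher and 22 lower, with 7 genes called by both. The mice agreed in sign for 122 of the 450 genes, 57 higher and 65 lower. Each treatment is 1 animal, so the test measures the spread of the within-mouse difference over 3 mice under 3 treatments. The median cell of a clone had 19918 and 20654 reads (absent and present, median over clones) in the anti-CD4, 22853 and 20851 in the tag 1 and 30036 and 27987 in the tag 2 tumour. Normalised CPM of these sums are given below, and the log2 differences are those of edgeR.

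The naming rule, which takes only genes with 1 sign in all 3 mice, picked 4 genes that were higher in absent clones, and none passed the test. Isg15 (chr4:156199424-156200818, GRCm38), a ubiquitin-like protein made in response to interferon, had 3137, 345 and 1250 CPM in the absent sums and 1784, 227 and 456 in the present sums (anti-CD4, tag 1 and tag 2, the order kept below). The difference was 0.96 ± 0.44 on the log2 scale (SD of the 3 mice; adjusted p = 0.767 with edgeR, 0.00175 with DESeq2), and it was -0.06 when all cells of each clone were summed. Usp18, which removes ISG15 from proteins, differed by 1.36 and Ifit3b, an interferon-induced antiviral gene, by 0.81, and both changed sign under other settings. Usp18 was at -0.20 in another draw of cells, and Ifit3b at -0.20 with cells thinned to 4000 reads. Clone by clone the median of Isg15 was 3.12 and 2.96, 1.36 and 0.87, and 1.44 and 1.41. Without the clones larger in the other tumour the absent median was 1.05 under tag 1 and 1.35 under tag 2, the latter below the 1.41 of present clones.

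Of the 12 tested genes of the interferon list, 8 were higher and 4 lower in absent clones, 0 passed the test, and the median log2 difference was 0.31, against -0.02 over all 450 genes. Within mice this median was 0.82, -0.20 and 0.77. Ifi211, the most abundant member, had 2611, 2589 and 2348 CPM in absent and 2568, 2690 and 2572 in present sums, so that the mice did not share a sign.

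Of the genes that the rule picked, 11 were lower in absent clones, and none passed the test. Csf2, which encodes GM-CSF, had 37.8, 23.7 and 79.4 CPM in absent and 382, 65.3 and 243 in present sums. The difference was -2.12 ± 1.04 (adjusted p = 0.808 with edgeR, 0.0091 with DESeq2), and in limma's fit of clone means it was -0.12. Tnfrsf25, the death receptor 3 gene, had 128, 298 and 37.9 CPM in absent and 240, 716 and 107 in present sums, a difference of -1.22 ± 0.29 that turned to 0.14 in clones of at least 20 cells. Lta (lymphotoxin alpha) differed by -1.40, Tnfsf8 (CD30 ligand) by -1.28, Ccl4 (a chemokine) by -0.81 and Tnfrsf13b (the receptor TACI) by -1.01, which was 0.08 in 1 other draw of cells.

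Ccl9, a chemokine gene, had the lowest value of the rule, -3.12 ± 2.05, with 22.5, 64.7 and 5.04 CPM in absent and 112, 229 and 251 in present sums. It was 0.57 in another draw of cells and -0.10 when all cells were summed. No read of it was found in 15 of 25, 25 of 33 and 8 of 14 absent clones, or in 37 of 82, 25 of 34 and 24 of 41 present ones. Ticam1, an adaptor of Toll-like receptor signalling, differed by -1.0, and Cd79b, Cxcr5 and Ifitm3 differed by -1.96, -1.94 and -1.84. Cxcr5 had no read in the absent sum of the anti-CD4 tumour, and Ifitm3, an interferon-induced gene, had the opposite sign in another draw of cells (1.25). Fam129c differed by 1.44.

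The cytokine and chemokine list had 2 of 12 tested members higher and 10 lower in absent clones, a median of -0.62 and 0 past the test. Within mice the median was -0.98, -0.30 and -1.14, the same sign in each, but in limma's fit of clone means it was -0.03. Ccl5, its most abundant member, had 117198, 102949 and 32706 CPM in absent and 86196, 136272 and 50865 in present sums, without a common sign. Xcl1, a chemokine of stem-like CD8+ cells, had 1273, 5875 and 17793 in absent and 8299, 6548 and 12446 in present sums. Il10, named after its values were seen, had 18.6, 3.37 and 0.40 CPM in absent and 190, 52.1 and 15 in present sums (-4.07; adjusted p = 0.63 with edgeR and 2.48e-05 with DESeq2). No read of Il10 was found in 19 of 25, 28 of 33 and 11 of 14 absent clones or in 40 of 82, 27 of 34 and 27 of 41 present ones, and in limma's fit of clone means its difference was -0.10.

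Macrophage markers and the markers of CD4 and regulatory T cells were also lower in the absent sums. Those of B cells and natural killer cells were not lower in every mouse. The part of any of these in the result was not tested. The 6 macrophage and monocyte markers in the panel summed to 126, 77.6 and 19.4 CPM in absent and 190, 145 and 54.8 in present sums. Of these, 5 of 5 tested had a lower estimate, but only 3 were lower in each of the 3 mice. The CD4 T cell and regulatory T cell markers summed to 714, 279 and 248 CPM in absent and 1138, 584 and 626 in present sums, while Cd4 itself was at 0 to 9.19 CPM. Il2ra, which is also in the survival list below, held 375, 278 and 248 CPM of the absent and 629, 584 and 293 of the present sums. Under tag 1 it made up nearly all of both sums. The CD8 T cell markers summed to 31798 to 43548 CPM in all 6 sums. B cell markers summed to 997, 1277 and 2042 CPM in absent and 1094, 841 and 2021 in present sums, with Cd79a at 0 throughout. Natural killer cell markers summed to 273, 108 and 206 CPM in absent and 213, 51.7 and 218 in present sums. Gamma delta T cell markers summed to 0 to 19.6 CPM, and the dendritic cell and neutrophil markers in the panel to at most 0.18. No melanoma marker was in the panel.

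The gene of the regulatory T cell factor Foxp3 was high in 3 large clones, and all of them were present, as were 157 of all 229 large clones. In the anti-CD4 tumour the TRBV14 clone of 26 cells and the TRBV13-3 clone of 16 cells had a mean log2(CPM + 1) of Foxp3 of 13.25 and 13.64, and under tag 2 the TRBV3 clone of 10 cells had 12.04. The highest absent clone had 1.32, 0.31 and 0.13 in the 3 tumours. In the sums of 10 cells per clone, Foxp3 had 333, 0.11 and 0 CPM in absent and 500, 0 and 332 in present sums. The same 3 clones had 10.12, 12.34 and 13.43 for Cd8a and 0 for Cd4, and the first also had the highest Il10 value of the anti-CD4 tumour, 5.45.

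Other lists showed smaller or opposed values, and no member of any list passed edgeR's test. Of 8 proliferation genes, 8 had a higher estimate in absent clones, with a median of 0.19, but only 2 were higher in each of the 3 mice, and 4 of 8 were in the anti-CD4 tumour. The median within mice was 0.02, 0.31 and 0.24, and over the mice it was -0.07 in another draw of cells. Mki67 was at 1784, 813 and 1114 CPM in absent and 1802, 433 and 978 in present sums. Its most abundant member Pclaf differed by 0.22. Of 11 cytotoxic genes 8 were higher (median 0.11), among them Gzmb, at 40789, 10100 and 9704 CPM in absent and 30395, 7186 and 9137 in present sums. Gzma, named after its values were seen, had 2963, 5174 and 2584 in absent and 1913, 3838 and 1312 in present sums. Its difference was 0.68 ± 0.28 (adjusted p = 0.767 with edgeR, 0.00113 with DESeq2). Over clones, its absent and present medians were 1.74 and 0.95, 2.24 and 1.49, and 0.51 and 0.53, so the order under tag 2 was the opposite. Without the clones larger in the other tumour the absent median under tag 2 was 0.45. Nkg7 differed by 0.08.

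Genes of naive and central memory cells were lower in 4 of 5 cases with a median of -0.45. The value came from the anti-CD4 tumour, where the median was -1.11, against -0.25 and 0.05 under tags 1 and 2. Ccr7 had 966, 4551 and 8927 CPM in absent and 2819, 7363 and 7583 in present sums. In the anti-CD4 and tag 1 tumours the absent sum lay under the present sum, and in the tag 2 tumour above it. Tcf7 differed by -0.45, with 215, 1830 and 1950 CPM in absent and 427, 2171 and 2138 in present sums. The lymph node retention and egress list had 2 of 4 members higher (median -0.28), and within mice its median was -0.85, -0.18 and 0.26.

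The checkpoint list had 6 of 11 members higher (median 0.06), and Pdcd1, Havcr2 and Ctla4 differed by 0.28, 0.21 and 0.06. Of 9 residency and homing genes 4 were higher (median -0.03). Itgae, which encodes an integrin of resident cells, had 8.30, 39.1 and 132 CPM in absent and 47.4, 11.3 and 131 in present sums, and Cxcr6 differed by 0.09. The short-lived effector list had 2 of 5 higher (median -0.17), with Klrg1 at -0.22, which turned to 0.77 without the clones larger in the other tumour, and Tbx21 at 0.28. The precursor list had 3 of 11 higher (median -0.15).

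The receptor signal list had 3 of 9 members higher (median -0.05), with Dusp2 at 0.08. The receptor complex list had 5 of 11 higher (median 0.00), with Trbc2 at -0.17, and the survival list 4 of 6 (median 0.04), with Il2rb at 0.14. The MHC class II list had 2 of 6 higher (median -0.65), with Cd86 at 0.46, and its median was 0.24, 0.36 and -0.60 within mice.

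**Figure D5:**
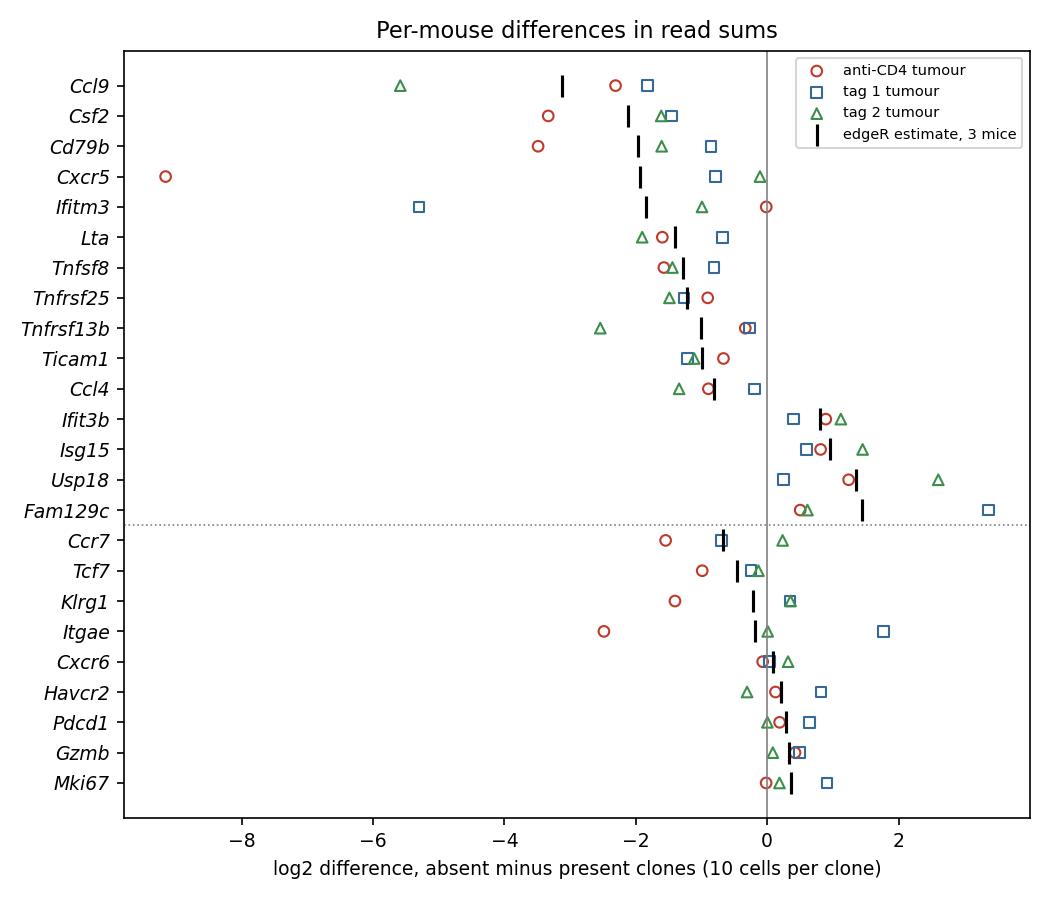
Log2 difference in CPM between the absent and present sums of each mouse (symbols) and edgeR's estimate over 3 mice (bars), for 15 genes of 1 sign in all mice (above the dotted line) and 9 genes chosen for their roles (below it). Isg15 lies at 0.96 and Csf2 at -2.12, and no gene passes an adjusted p of 0.05.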

How the data were processed

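The members, lists and tests were chosen with earlier results of these data known. Build GRCm38, cutadapt (3.2 and 3.4), R 3.6.3 and Bowtie2 2.4.2 are named in the submitters' processing notes; for the receptor caller, none is given in the sources used here. The count of each panel gene was deposited cell by cell as whole numbers; since every cell sums to 4361 or more, these were taken to be sequencing reads, not molecules. Chain counts per cell were deposited as estimated counts, and the deposited fraction beside each is the chain's share of that cell's reads of its kind, listed for beta chains from 0.6 up. In the deposited node tables a clone has its read count and the fraction this makes of the table.

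Tags 5 and 6 were 1 mouse. Cells that the file headers name as doublets or without a tag were left out, and no doublet caller was added. Cells (6412 to 12304 a tumour, 132017069 to 290603510 panel reads) were matched to nodes by V gene, CDR3 nucleotides and J gene. edgeR 4.0.16 (TMM, filterByExpr minimum count 10, prior count 2, mouse as a block) was the main test. The fit was first run on simulated counts. It recovered 53 of 192 genes changed 2-fold (27.6%) and 99 of 187 changed 4-fold (52.9%), and called 0 and 2 unchanged genes. These changed genes stood among 429 and 425 genes tested, a large part of each set. The rates need not hold for data with fewer changed genes. Many changes of these sizes can thus be missed. The block needs no check of pairing, since both sums of a mouse come from it. DESeq2 1.42.0 and limma 3.58.1 (pseudocount 1) ran as alternatives, on R 4.3.3. Genes were named by this rule: when under 10 pass, the 15 of highest absolute difference with 1 sign in 3 mice and a mean of 50 CPM, the most abundant member of each list, and 11 genes of known role, of which S1pr1 was not in the panel and 1 is not reported here. Named clones were the 5 largest absent and 3 largest present of each tumour. Repertoire steps used Python 3.11.15 with scipy 1.17.1.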

Additional observations from a re-analysis of the deposited data

Results flagged for a closer look

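The use of 4 beta V genes and of TRAJ30 differed in opposite directions between tumours, as percent of absent minus percent of present large clones. The difference between tumours was not tested, each tumour is 1 mouse, and the size from which a difference was taken, 5 percentage points, was chosen after seeing the data. TRBV19 was higher by 25.7 points among absent clones of the anti-CD4 tumour and at -9.93 points under tag 2. TRAJ30 as the leading alpha J gene was at 27.1 points in the anti-CD4 tumour and -24.6 under tag 2. TRBV12-1 was at 23.7 points under tag 2 and -15.9 in the anti-CD4 tumour. TRBV16 was at 14.1 points under tag 2 and -8.65 under tag 1. TRBV5 was at 6.33 points under tag 1 and -6.10 in the anti-CD4 tumour, and 2 of its 5 absent clones under tag 1 were larger under tag 2. Without those larger in the other tumour, TRBV5 was used by 3 of 27 absent (11.1%) and 3 of 34 present clones (8.82%) under tag 1, less than 5 points apart.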

How the results depend on the processing

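The size difference kept its direction under all 11 alternatives run, from -0.59 to -0.47 with each mouse left out. The alternative without the clones larger in the other tumour was chosen after seeing the data. The fit without the replicate block called 0 genes, as did the fit with it. A clone is absent only below the listing limit of its node, and the nodes differed in depth, so percents absent are not on 1 scale between tumours. Without the filter on low counts the median of all genes was -0.26, against -0.02 with it. The cause of the changes below was not tested; values are log2 differences for genes and their medians for lists. With large clones defined from 5 cells up, the percent absent (tag 2) was 39.8. With large clones defined from 20 cells up, the percent absent (tag 1) was 26.1, Ifitm3 0.26, Tnfrsf25 0.14, Pdcd1 -0.0655, Klrg1 0.0461, the cytotoxic effector list 0.14, the short-lived effector list 0.0461, the T cell receptor signal and early activation list 0.0961, the survival and apoptosis list -0.21 and the percent of TRBV19 among absent clones (tag 1) 33.3. With at least 20 node reads for presence, the percent absent (anti-CD4) was 32.7. With nodes thinned to the smallest node, the percent absent (anti-CD4) was 36.4. Without the filter on low counts, the number of genes called was 27, Ctla4 -0.0294, Nkg7 -0.00851, Dusp2 -0.0051, the cytotoxic effector list 0.0246 and the receptor complex and CD8 coreceptor list -0.0871. With DESeq2, the number of genes called was 11 and the cytotoxic effector list 0.13. In draw 2 of the cells, Ccl9 was 0.57, Usp18 -0.20, Mki67 -0.0918, Ifi211 0.15, the checkpoint receptors list -0.10, the cytotoxic effector list 0.0746 and the proliferation list -0.0691. In draw 3 of the cells, Ifitm3 was 1.25, Klrg1 0.39, Tbx21 -0.0356, the checkpoint receptors list -0.0954, the cytotoxic effector list 0.14, the short-lived effector list 0.36 and the MHC class II and antigen presentation list 0.0903. With limma on clone means of log2(CPM + 1), Ifitm3 was 0.0273, Klrg1 0.13, Xcl1 0.26, Ccl5 0.14, Ifi211 0.23, the precursor exhausted and stem-like list 0.00857, the cytotoxic effector list 0.35, the short-lived effector list 0.13, the cytokines and chemokines list -0.0337, the tissue residency and tissue homing list 0.14, the MHC class II and antigen presentation list -0.0307 and the receptor complex and CD8 coreceptor list 0.16. With cells thinned to 4000 reads, Usp18 was -0.14, Ifit3b -0.20, Itgae 0.15, Tbx21 -0.12, Dusp2 -0.0173, Ifi211 0.23, Cd86 -0.22, the cytotoxic effector list 0.16 and the proliferation list 0.0191. Over clones of 10 to 49 cells, Usp18 was -0.0132, Nkg7 -0.00022, Tbx21 -0.12, Dusp2 -0.11, Ifi211 0.0387, the cytotoxic effector list 0.0424, the T cell receptor signal and early activation list -0.23, the tissue residency and tissue homing list -0.17 and the survival and apoptosis list -0.22. In draw 5 of the cells, Tnfrsf13b was 0.0842, Ccl5 0.00339, Ifi211 0.12, Cd86 -0.0625, the cytotoxic effector list 0.13 and the receptor complex and CD8 coreceptor list 0.0856. With all cells summed, Isg15 was -0.0569, Ifit3b -0.21, Ccr7 0.24, Cxcr6 -0.0513, Dusp2 -0.19, Cd86 -0.0485, the cytotoxic effector list 0.0414 and the proliferation list 0.51. Without the clones larger in the other tumour, Klrg1 was 0.77, Ifi211 0.0611, the cytotoxic effector list 0.18, the short-lived effector list 0.16 and the MHC class II and antigen presentation list -0.0314. In draw 4 of the cells, Tbx21 was -0.0708, Dusp2 -0.0399, Ifi211 0.16, Cd86 -0.13 and the cytotoxic effector list 0.0583. With presence by CDR3 amino acids, Ifi211 was 0.064 and the short-lived effector list 0.12. With DESeq2 size factors, the cytotoxic effector list was 0.13. Without the mouse as replicate block, the cytotoxic effector list was 0.13. With each mouse left out in turn, the lowest and highest values were: Havcr2 -0.0991 to 0.50, Itgae -1.25 to 0.90, Klrg1 -0.54 to 0.36, Xcl1 -1.40 to 0.19, Ctla4 -0.0162 to 0.12, Ccl5 -0.52 to 0.0455, Dusp2 -0.0696 to 0.17, Pclaf -0.0458 to 0.42, Ifi211 -0.088 to 0.0107, Trbc2 -0.33 to 0.0155, the cytotoxic effector list 0.0233 to 0.17, the short-lived effector list -0.24 to 0.36, the cytokines and chemokines list -1.12 to -0.40, the MHC class II and antigen presentation list -0.67 to 0.37 and the receptor complex and CD8 coreceptor list -0.0104 to 0.0893.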
